A study of Mus musculus with 10 samples.

Results

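Imprinted genes were followed as a group in mouse embryos at embryonic day 5.5. The members were taken from a list of 35 imprinted genes, with Igf2 and Igf2r left out, and every probe set annotated to exactly 1 of the 35 symbols was used. That rule found 31 of the 35 genes, among 18193 named genes on the arrays, with 78 probe sets. It found no probe set for H19, Rtl1, Slc22a3 and Zrsr1. Of the 31 genes, 16 are known as paternally expressed, 14 as maternally expressed, and Gnas makes transcripts of both kinds. These classes are textbook background: the arrays measured total RNA of a gene and did not tell the parental copies apart.

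The study asked which genes differ between the anterior and posterior sides of the embryo just before gastrulation. Embryos came from B6SJLF1 × CerlP-GFP matings, in which a green fluorescent protein reporter under the Cerl (Cer1) promoter labels the anterior visceral endoderm (AVE). They were not treated, and all groups shared this background. The Ad (anterior distal) fragment held the labelled AVE and the epiblast beneath it, and the Pp (posterior proximal) fragment was a triangle of proximal visceral endoderm and epiblast cut on the opposite side, reaching up to the border with the extraembryonic region. On each of the array types MOE430A and MOE430B there were 2 Ad arrays, 2 Pp arrays and 1 array of a whole embryo, all of linearly amplified RNA. Ad and Pp replicates 1 and 2 were on MOE430A and replicates 3 and 4 on MOE430B. The whole embryo had no replicate on either type.

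Genomic imprinting marks 1 parental copy of a gene in the germ line by DNA methylation, so that after fertilization the gene is read mainly from the copy of the father or of the mother. Many imprinted genes act on growth: paternally expressed genes often promote it, and maternally expressed genes often restrain it, with strong effects in the placenta. Imprinted genes lie in clusters in which a control region sets the activity of several neighbours, and for some members the imprint acts in placenta or in neurons while other cells use both copies.

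The promoters of 4 members are shown first, since DNA methylation of imprinted genes falls on CpG dinucleotides. Mest and Grb10 had the largest Ad excess, and Phlda2 lay far lower in the fragments than in the whole embryo. So did 1 of the 3 Plagl1 probe sets, which was bright enough to test only through its whole-embryo value. Each line gives the 250 bases before a RefSeq transcript start (GRCm38.p6), 5′ to 3′ along the strand of the gene, with each CpG in capitals.

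Mest promoter, chr6:30737800-30738049, plus strand: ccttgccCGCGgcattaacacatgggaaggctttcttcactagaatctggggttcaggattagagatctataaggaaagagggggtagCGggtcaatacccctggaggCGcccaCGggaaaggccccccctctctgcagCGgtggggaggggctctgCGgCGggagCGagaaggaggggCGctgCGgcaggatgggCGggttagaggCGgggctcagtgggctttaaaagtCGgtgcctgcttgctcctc
Grb10 promoter, chr11:12037421-12037670, minus strand: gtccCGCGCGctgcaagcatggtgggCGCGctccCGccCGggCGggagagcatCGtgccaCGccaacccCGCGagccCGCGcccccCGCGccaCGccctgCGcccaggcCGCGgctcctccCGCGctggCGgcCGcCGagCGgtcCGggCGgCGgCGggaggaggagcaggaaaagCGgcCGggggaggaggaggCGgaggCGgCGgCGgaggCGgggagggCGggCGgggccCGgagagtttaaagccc
Phlda2 promoter, chr7:143502525-143502774, minus strand: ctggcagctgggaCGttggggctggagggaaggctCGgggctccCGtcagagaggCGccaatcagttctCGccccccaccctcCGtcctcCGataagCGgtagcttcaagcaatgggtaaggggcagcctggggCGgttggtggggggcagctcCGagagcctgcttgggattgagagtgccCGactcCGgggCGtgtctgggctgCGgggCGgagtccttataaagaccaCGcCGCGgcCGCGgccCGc
Plagl1 promoter, chr10:13090582-13090831, plus strand: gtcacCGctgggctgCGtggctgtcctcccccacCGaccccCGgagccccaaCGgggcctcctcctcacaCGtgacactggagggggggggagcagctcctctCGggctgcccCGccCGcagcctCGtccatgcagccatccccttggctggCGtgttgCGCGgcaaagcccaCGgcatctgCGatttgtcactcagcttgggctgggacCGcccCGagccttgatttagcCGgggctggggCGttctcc

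The Mest sequence held 14 CpG, that of Grb10 40, that of Phlda2 21 and that of Plagl1 19. More CpG than in 98.7% of the 32851 RefSeq promoters in the table stood in the Grb10 sequence, which lies before 1 of 2 starts of this gene. Before the other Grb10 start, at chr11:12027972-12028221, stood 8 CpG, more than in 57.0% of the promoters. Promoter sequences were matched for 26 members, with 38 starts; their median was 10 CpG, against 6.0 over all promoters. The hexamer TGCCGC, which the imprint-protecting zinc finger protein Zfp57 is known to bind when methylated, was searched on both strands (GCGGCA on the other). It holds 1 CpG itself. It matched in 7 of the 38 member promoters (18.4%, 6 genes) and in 8.68% of all promoters. The Mest sequence shown had 2 matches, the Plagl1 sequence 1, and those of Grb10 and Phlda2 had 0. Mest has 3 starts in the table: a second, 3 bases away, holds the same matches and is counted among the 7, and the other, at chr6:30733256-30733505, had 7 CpG and 0 matches. A match describes these letters only. The arrays did not measure methylation.

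Signals are deposited MAS5 intensities in arbitrary units. Levels of different probe sets were not set against each other. Differences are on a log2 scale after adding a pseudocount of 248 (MOE430A) or 10.5 (MOE430B), and a difference passed at a limma adjusted p of 0.05 over all probe sets tested. Of the 57 member probe sets on MOE430A 33 were bright enough to be tested (21 genes, mean signal above about 464), and of the 21 on MOE430B 13 (7 genes, above about 37.2). Members tested on either type numbered 24, of which 12 were paternally expressed and 11 maternally expressed. Where a gene had several probe sets, the brightest stands for it. Spearman's rho across probe sets was 0.995 (MOE430A) and 0.985 (MOE430B) between the 2 Ad arrays, and 0.990 and 0.976 between the 2 Pp arrays. The fragments correlated with the whole embryo at 0.966 to 0.972 and at 0.959 to 0.969. In these bulk samples fewer cells of a type and less RNA per cell cannot be told apart.

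Between the anterior and posterior fragments no imprinted gene passed. On MOE430A 0 of 33 member probe sets passed in limma, where 0.169% of all probe sets tested passed, and 5 (15.2%) had an unadjusted p under 0.05, against 11.7% of all. The largest differences, of Mest and Grb10 towards Ad and of Phlda2 towards Pp, were at least 0.62 in size, while those of the other 18 tested genes by their brightest probe sets were at most 0.30. Mest and Grb10 belong to opposite parental classes.

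**Figure D1:**
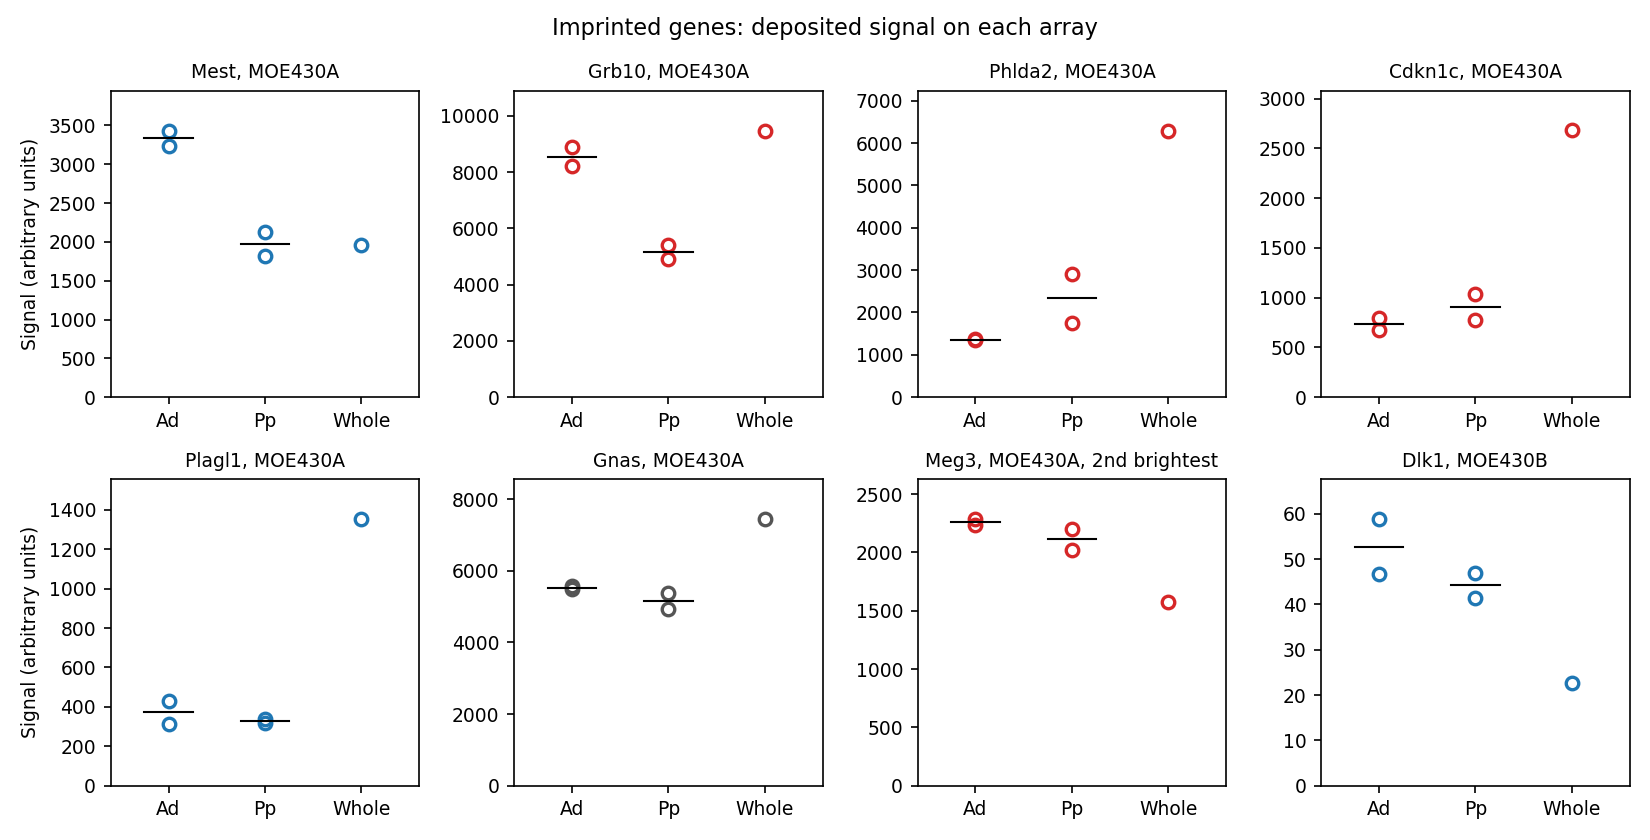
Deposited signal (arbitrary units, linear axis from 0) of 8 imprinted genes on each array: circles are single arrays, horizontal lines are the means of the 2 Ad or 2 Pp arrays, and the whole embryo has 1 array. Blue marks paternally expressed genes, red maternally expressed genes and grey Gnas; Mest and Grb10 were higher on both Ad arrays than on both Pp arrays, and Phlda2, Cdkn1c, Plagl1 and Gnas were highest in the whole embryo.

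Mest, a paternally expressed gene for an enzyme-like protein of the alpha/beta hydrolase fold, was at 3234 and 3435 in Ad, 1814 and 2133 in Pp and 1956 in the whole embryo. The Ad arrays lay above the Pp arrays with no overlap. In deposited signal the whole embryo lay among the Pp arrays, but after centring of the arrays it lay below every fragment. The fitted difference was 0.62 ± 0.10 (SE), or 1.54-fold higher in Ad, and did not pass (limma adjusted p = 0.128). Grb10, a maternally expressed gene for an adaptor that restrains insulin and Igf receptor signalling, was at 8883 and 8210 in Ad, 4918 and 5425 in Pp and 9484 in the whole embryo. Here the whole embryo was above both Ad arrays. The difference of 0.63 ± 0.08 (1.55-fold) did not pass (limma adjusted p = 0.0909). A dimmer tested Grb10 probe set gave -0.04, with signals from 548 to 758 in the fragments.

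The Grb10 difference passed with no centring of the arrays (0.70, limma adjusted p = 0.0474). Both genes passed without Pp replicate 1 and without Pp replicate 2, when the spread comes from the Ad pair, and neither passed without an Ad array (limma adjusted p from 0.684 to 0.834). Markers of the AVE moved the same way: all 10 listed were higher in Ad, with an unadjusted limma p under 0.05, and 6 passed. The list includes Cer1, whose promoter drives the reporter that marked the AVE held in Ad. It summed to 26975 and 21879 in Ad, 8589 and 7898 in Pp and 10143 in the whole embryo. Markers of visceral endoderm as a whole summed to 98433 and 86204 in Ad and 74475 and 90868 in Pp, and 0 of 14 passed in limma (5 at an unadjusted p under 0.05). Their part in the Mest and Grb10 values was not tested.

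Phlda2, a maternally expressed gene whose product restrains growth of the placenta, was at 1342 and 1371 in Ad and at 1760 and 2919 in Pp. The Pp arrays were above the Ad arrays but far apart from each other. The difference of -0.72 ± 0.21 did not pass (limma adjusted p = 0.341). It was -0.38 without Pp replicate 2 and -1.06 without Pp replicate 1, and passed in both cases. Pp replicate 2 also had the highest fragment signal of most listed extraembryonic ectoderm and trophoblast markers, but not of Tfap2c, Plac1, Sox2 and Tpbpa. Elf5, a transcription factor of extraembryonic ectoderm, was at 2432 there, 601 in Pp replicate 1 and 340 and 296 in Ad. Tfap2c was at 1241 there, against 1295 in Pp replicate 1. Rhox5, with the largest part in the sum of the list, was at 14255 there and 9248 to 10898 in the other fragments. The 13 markers of extraembryonic ectoderm and trophoblast on MOE430A summed to 33112 in Pp replicate 2 and to 21397 to 23774 in the other fragments. Their part in the Phlda2 and Cdkn1c values was not tested. Cdkn1c, the maternally expressed inhibitor of cyclin-dependent kinases, was at 791 and 673 in Ad and 777 and 1035 in Pp, overlapping in deposited signal but not after centring, with a difference of -0.30 ± 0.13 (limma adjusted p = 0.435). It was -0.13 without Pp replicate 2 and -0.47 without Pp replicate 1, where it passed.

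The other tested members on MOE430A lay between -0.13 and 0.09 by their brightest probe set. Meg3, a maternally expressed long noncoding RNA, was at 8316 and 7529 in Ad and 6435 and 7713 in Pp (0.09 ± 0.11). Impact, a paternally expressed regulator of translation, was at 1272 and 1209 in Ad and 1145 and 1044 in Pp (0.08 ± 0.07). The tetraspanin gene Cd81 was at 5955 and 5499 against 5453 and 5064 (0.05 ± 0.07). Each of these 3 was close to level across the fragments.

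On the low side, Nap1l4, a gene of the nucleosome assembly protein family, was at 4530 and 4697 in Ad and 4773 and 4869 in Pp (-0.13 ± 0.07). Nnat, the paternally expressed membrane proteolipid neuronatin, was at 687 and 690 against 712 and 735 (-0.12 ± 0.07). Dcn, the matrix proteoglycan decorin, was at 539 and 593 against 552 and 624 (-0.11 ± 0.08). The limma adjusted p of all 3 was above 0.5: 0.509 for Nap1l4, 0.523 for Nnat and 0.636 for Dcn. Peg3, a zinc finger gene, was level by its brightest probe set (0.01 ± 0.07), while its second gave -0.29 ± 0.07 with 1461 and 1354 in Ad and 1760 and 1606 in Pp (limma adjusted p = 0.306).

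By parental class, 5 of 10 paternally expressed genes were above 0 with a median of -0.0049, and 3 of 10 maternally expressed genes with a median of -0.10. Over all 13575 probe sets tested the median was -0.03 and 41.1% were above 0. The paternal median turned positive with no centring (0.06), under quantile normalization (0.00032) and cyclic loess (0.01), with the stricter filter (0.01) and without Pp replicate 1 (0.0058). The maternal median was -0.03 with no centring and -0.05 with no filter. On the centred log2 scale 5 of 33 member probe sets (15.2%) had both Ad arrays above both Pp arrays, against 16.2% of all probe sets, and 12 (36.4%) had them below, against 29.1%. The shares of the members were thus near those of the array as a whole.

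**Figure D2:**
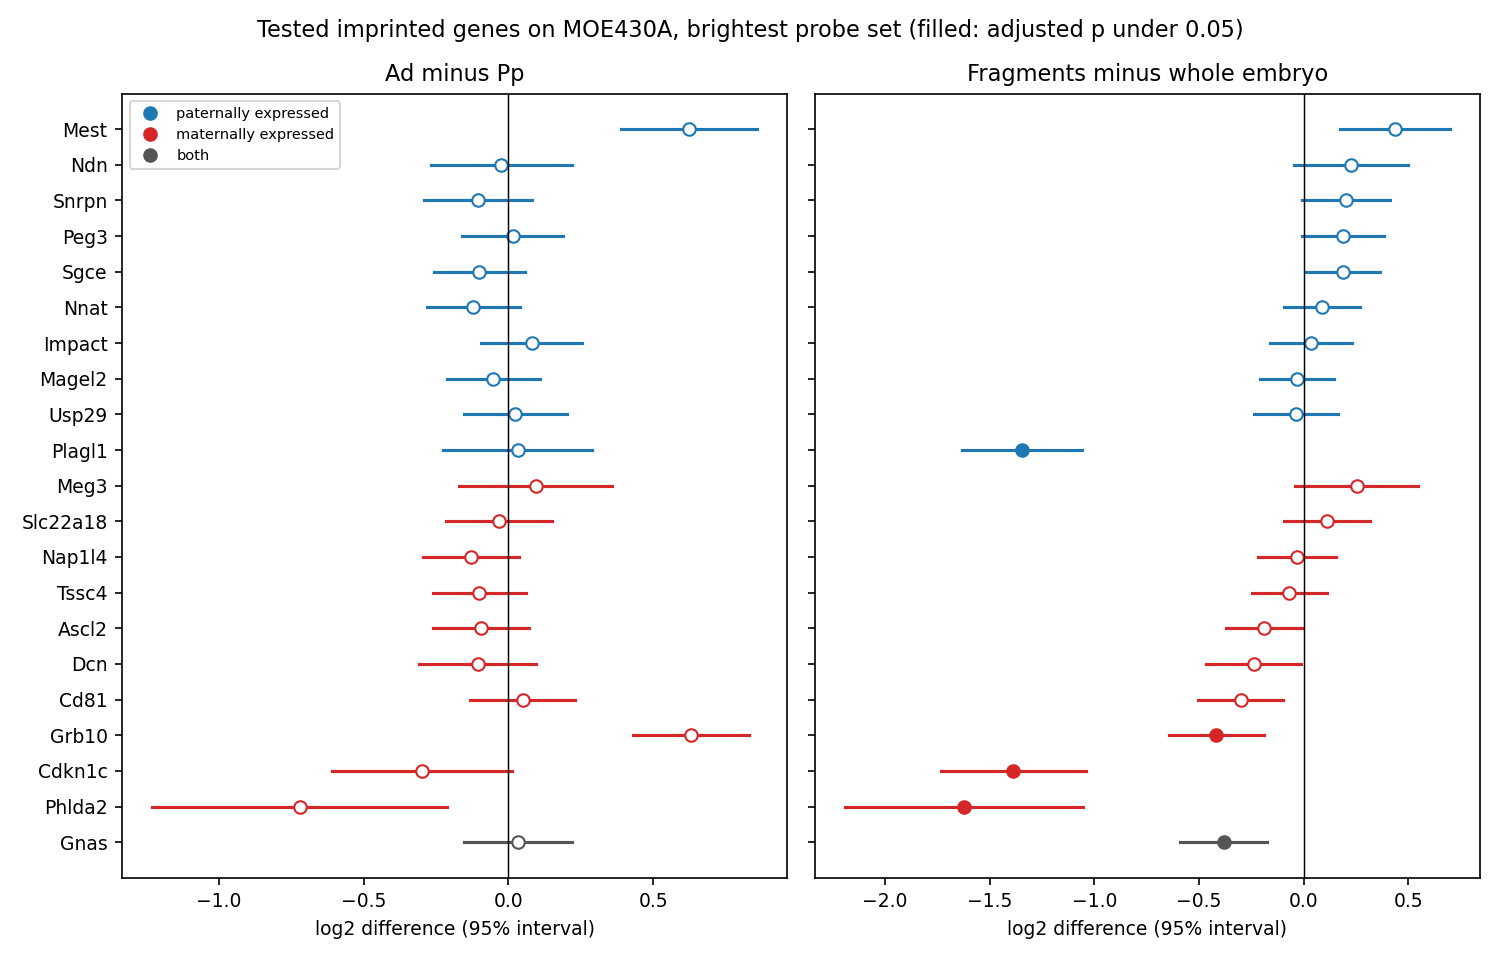
Fitted log2 difference with its 95% interval (horizontal lines) for the brightest probe set of the 21 tested members on MOE430A, Ad minus Pp on the left and fragments minus whole embryo on the right. Filled points passed at an adjusted p under 0.05: none on the left, and on the right Plagl1, Grb10, Cdkn1c, Phlda2 and Gnas, all below 0; blue is paternally expressed, red maternally expressed and grey both.

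The whole embryo differed more from the fragments. Phlda2, Cdkn1c and 1 probe set each of Plagl1, Grb10 and Gnas were lower in the fragments, and 1 probe set of Meg3 was higher. These were 6 of 33 member probe sets (18.2%, 1 higher and 5 lower), where 9.78% of all probe sets tested passed (624 higher and 703 lower, a split of 338 and 966 with no centring). The Plagl1 probe set among the 6 had to differ, since it passed the filter only through the whole embryo, and without it 5 of 32 passed (15.6%). Since a single whole-embryo array stands on 1 side, the fit assumes that it varies like the fragments. Without Ad replicate 1 or without Ad replicate 2 only Cdkn1c and Plagl1 of these passed, and without Pp replicate 1 or 2 all 6 did.

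On MOE430A the maternally expressed genes leaned to the whole embryo. By their brightest probe sets 8 of 10 were below 0, 3 passed, and the median was -0.21, against 0.05 over all probe sets, of which 60.8% were above 0. But 7 of these 10 genes lie in 1 domain, that of Kcnq1 (median -0.19), Phlda2 and Cdkn1c among them, so the class median mostly describes that domain. Of the 10 paternally expressed genes 7 were above 0, 1 passed (Plagl1, lower), and the median was 0.14. The 7 include Snrpn, which was below the filter signal in the whole embryo. The class medians kept their signs with no centring and under quantile normalization and cyclic loess, at -0.29 to -0.21 and 0.06 to 0.14. Their size moved with other settings: the paternal median was 0.06 with no filter, 0.21 with no pseudocount and 0.08 without Ad replicate 2, and the maternal median -0.14 with no filter. The difference between the classes itself was not tested. On the centred scale the whole embryo was above all 4 fragments for 10 of 33 member probe sets (30.3%), against 22.7% of all, and below all 4 for 16 (48.5%), against 38.5%. Most of the 16 come from Ndn, Meg3 and Peg3, each with several probe sets that read 1 gene. For Mest, Nnat and 1 probe set each of Meg3 and Slc22a18, the deposited whole-embryo signal lay within the range of the fragments. The 16 also include Snrpn, which like 1 Ndn probe set was below the filter signal in the whole embryo. The 10 include Plagl1, below it in the fragments.

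Phlda2 was at 6298 in the whole embryo, above every fragment (1342 to 2919), and was 3.08-fold lower in the fragments (-1.62 ± 0.23, limma adjusted p = 0.0152). Cdkn1c was at 2680, against 673 to 1035, and was 2.61-fold lower (-1.39 ± 0.14, limma adjusted p = 0.00476). Grb10 was 1.34-fold lower (-0.42 ± 0.09, limma adjusted p = 0.0459), and its fragments were split, since the Ad arrays lay near the whole embryo. The Phlda2 and Grb10 calls ended without Ad replicate 1 (0.0770 and 0.130) and without Ad replicate 2 (0.0873 and 0.174), and that of Grb10 also with no pseudocount (0.0682).

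Phlda2 and Cdkn1c lie close together in the Kcnq1 domain of chromosome 7, where a control region inside Kcnq1 keeps several genes silent on the paternal copy. In the RefSeq gene order the members of the domain run Ascl2, Cd81, Tssc4, Kcnq1, Cdkn1c, Slc22a18, Phlda2, Nap1l4, Osbpl5. The differences did not run along the domain as a block. Slc22a18, a transporter gene between Cdkn1c and Phlda2, was at 1426, 1294, 1374 and 1267 in the fragments, against 1304 in the whole embryo (0.11 ± 0.08). Nap1l4 and Tssc4 were near 0 (-0.03 and -0.07).

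At the near end of the domain, Ascl2, the transcription factor gene needed for trophoblast, was at 992 to 1062 over the fragments, against 1301 in the whole embryo by its brightest probe set (-0.19 ± 0.08, limma adjusted p = 0.177). A dimmer Ascl2 probe set, below the filter, was at 216, 179, 190 and 135 in the fragments, against 664 in the whole embryo, a difference of -1.03 with no filter (limma adjusted p = 0.00599). Cd81 was at 5064 to 5955 and 7216 (-0.30 ± 0.08, limma adjusted p = 0.0798). It passed with no centring. Kcnq1 itself (310 to 348 in the fragments, 333 in the whole embryo) and Osbpl5 (155 to 204, and 271) were below the filter.

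**Figure D3:**
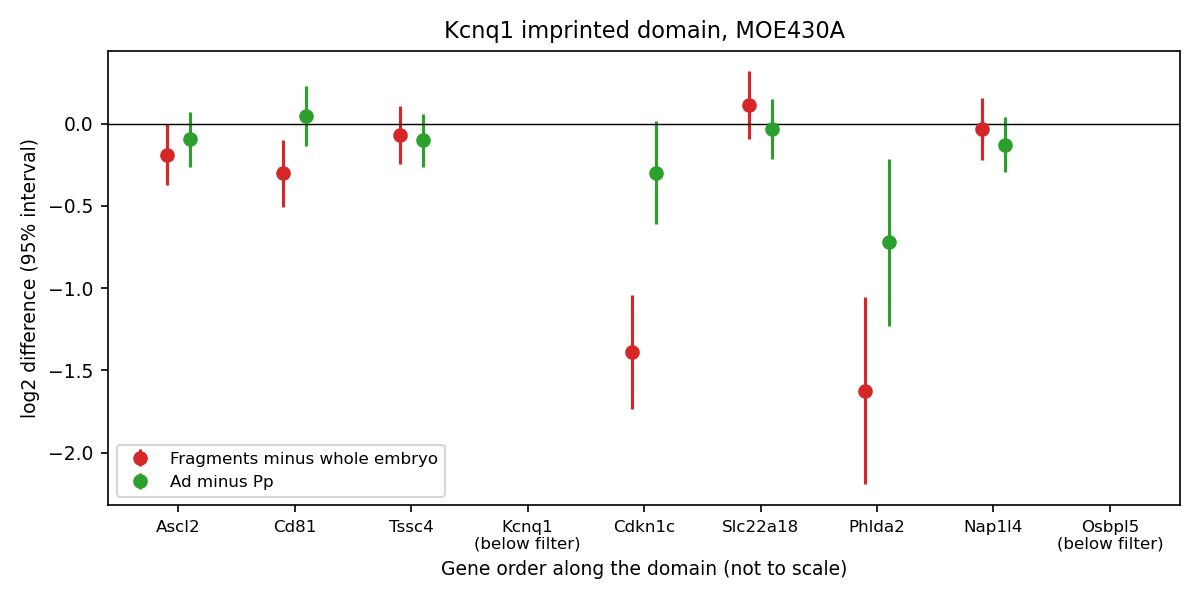
Members of the Kcnq1 domain on MOE430A in their order along chromosome 7 (horizontal axis, not to scale), with the fitted log2 difference and its 95% interval for fragments minus whole embryo (red) and Ad minus Pp (green). Cdkn1c (-1.39) and Phlda2 (-1.62) lie far below 0 in red, with Slc22a18 (0.11) between them; Kcnq1 and Osbpl5 were not tested.

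Plagl1, a paternally expressed zinc finger gene that slows the cell cycle, was at 315 and 429 in Ad, 336 and 320 in Pp and 1354 in the whole embryo. All 4 fragments were below the filter signal of 464, so the probe set was tested only because of its whole-embryo value, and no fold is given (-1.35 ± 0.12, limma adjusted p = 0.00269). The probe set was below the stricter filter and below the filter with no pseudocount, and passed in the other settings. The other Plagl1 probe sets were level: one on MOE430A was at 227 to 274 over the fragments, against 253 in the whole embryo, and one on MOE430B at 87.7 to 116 and 114. Gnas, which encodes the stimulatory G protein alpha subunit and imprinted transcripts of both parental kinds, was at 5492 and 5572 in Ad, 4919 and 5377 in Pp and 7445 in the whole embryo. It was 1.30-fold lower in the fragments (-0.38 ± 0.08, limma adjusted p = 0.0473), with the call ending without Ad replicate 1 (0.159) or 2 (0.168), with no pseudocount (0.0732) and with an intensity trend (0.0517). The other Gnas probe sets on MOE430A, all below the filter, gave -0.16, 0.06 and 0.18 with no filter. Dcn was at 539 to 624 over the fragments, against 780 in the whole embryo (-0.24 ± 0.09, limma adjusted p = 0.167).

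The whole-embryo array also carried more signal of decidua and stroma markers than any fragment. Of 13 decidua markers tested on MOE430A 8 passed as lower in the fragments and 0 as higher, with a median of -1.26. Their list summed to 18522 to 20406 over the fragments, against 53259 in the whole embryo. Prl8a2, a decidual prolactin, was at 241 to 564 and 6063. All 5 stroma and mesenchyme markers tested were lower, 4 of them passed, and their list summed to 3935 to 4150 and 15128. Of 11 extraembryonic ectoderm and trophoblast markers tested all but Tfap2c (0.05) were below 0, with a median of -0.33. Of these 3 passed (Ets2, Hand1 and Plac1), and the list summed to 21397 to 33112 and 36713. Markers of maternal blood summed to 1619 to 1760 and 1958. Only 1 of the 5 on MOE430A, Lyz2, was bright enough to test, and it did not pass (limma adjusted p = 0.156). The part of decidua, stroma and trophoblast in the values of Phlda2, Cdkn1c, Plagl1, Grb10, Gnas, Ascl2, Cd81 and Dcn was not tested.

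Among the members higher in the fragments, Mest (0.43 ± 0.11, limma adjusted p = 0.0614) did not pass. Meg3 was higher by its second brightest probe set, at 2232 and 2287 in Ad, 2024 and 2202 in Pp and 1571 in the whole embryo. All 4 fragments were above the whole embryo, by 1.41-fold (0.50 ± 0.08, limma adjusted p = 0.0226); the call ended without Ad replicate 1 (0.0952) or 2 (0.117). The brightest Meg3 probe set, at 6600 in the whole embryo, gave 0.25 ± 0.12 (limma adjusted p = 0.239), and the next gave 0.30 ± 0.08 (limma adjusted p = 0.0708). The 3 tested Meg3 probe sets on MOE430A thus leaned the same way with different sizes.

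The Prader-Willi region of chromosome 7 gave small differences of 1 sign by most probe sets. Ndn, a paternally expressed growth suppressor of the MAGE family, had 7 tested probe sets out of 8, from 0.09 to 0.39. Its brightest was at 2270 and 1985 in Ad, 2234 and 1882 in Pp and 1861 in the whole embryo (0.23 ± 0.11, limma adjusted p = 0.251). None of the 7 passed in limma. An unadjusted p under 0.05, which 27.3% of all probe sets had, was found for 4, of which 1 lay below the filter signal in the whole embryo (362), and for 6 the whole embryo was below all 4 fragments on the centred scale. These probe sets read 1 gene and are not replicates of it. Snrpn, the gene of a spliceosome protein, was at 481 and 538 in Ad, 551 and 507 in Pp and 456 in the whole embryo (0.20 ± 0.09, limma adjusted p = 0.194). Its whole-embryo value lay below the filter signal of 464, so it was tested only through the fragments. Magel2, another MAGE family gene, was at 608 to 641 and 689 (-0.03).

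Peg3 was at 5856 and 5937 in Ad, 5384 and 5728 in Pp and 5292 in the whole embryo (0.19 ± 0.08, limma adjusted p = 0.197), and its 3 probe sets ranged from 0.02 to 0.29. Its neighbour Usp29, a ubiquitin protease gene, was at 482 to 584 and 597 (-0.04). A dimmer Usp29 probe set, below the filter, was at 269 to 306 over the fragments, against 151 in the whole embryo, a difference of 0.48 with no filter (limma adjusted p = 0.0242). Sgce, the gene of epsilon-sarcoglycan, was at 984 to 1024 over the fragments, against 910 in the whole embryo (0.19 ± 0.07, limma adjusted p = 0.163). Nnat (0.09) and Impact (0.03) were near 0. Medians of markers of AVE (0.56, 6 of 10 tested passed), visceral endoderm (0.28, 3 of 14 passed) and epiblast (0.51, 4 of 7 passed) also lay above 0. The AVE list summed to 7898 to 26975 over the fragments, against 10143 in the whole embryo, visceral endoderm to 74475 to 98433, against 72493, and epiblast to 34302 to 37911 over the fragments, against 26315 in the whole embryo. Their part in these values was not tested.

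**Figure D4:**
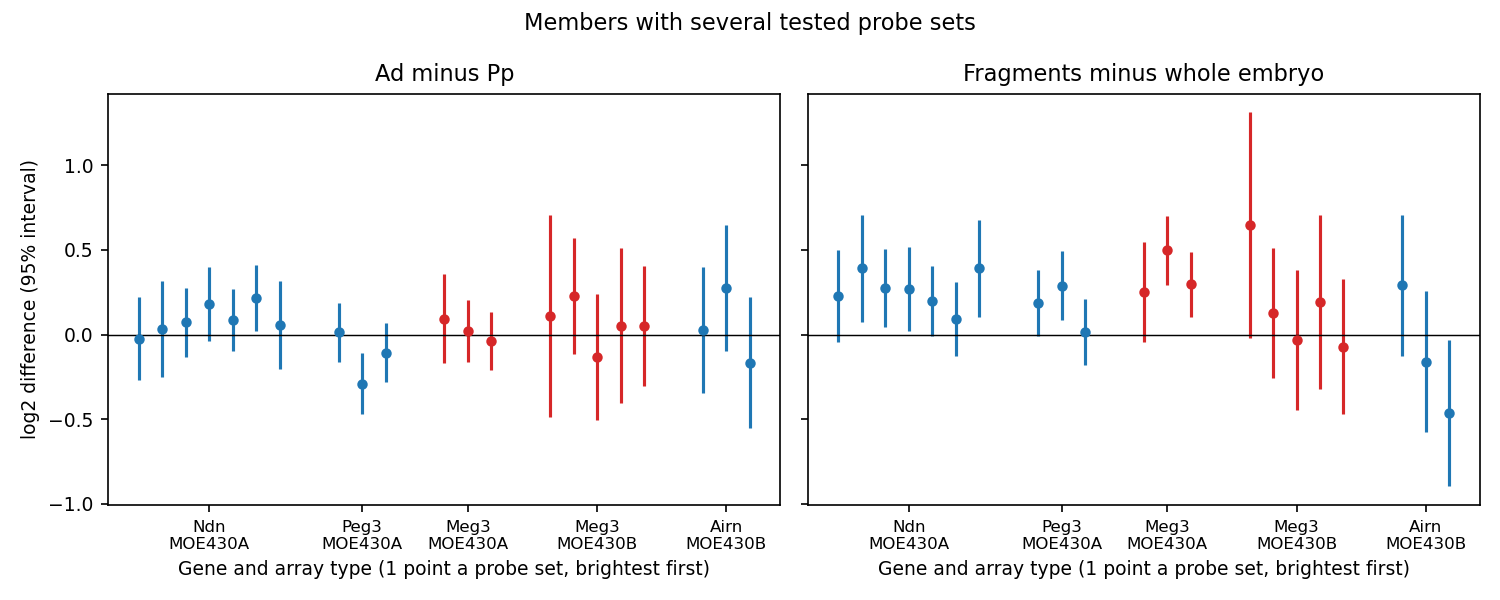
Fitted log2 difference with its 95% interval for each tested probe set (1 point each, brightest first) of members with at least 3 tested probe sets on an array type, Ad minus Pp on the left and fragments minus whole embryo on the right. On the right all 7 Ndn probe sets (0.09 to 0.39) and all 3 Meg3 probe sets on MOE430A lie above 0, while those of Airn on MOE430B run from -0.47 to 0.29; blue is paternally expressed and red maternally expressed.

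On MOE430B, which carries mostly other and dimmer probe sets, 0 of 13 member probe sets passed in limma in either comparison, where 0.111% of all passed between Ad and Pp and 2.21% between fragments and whole embryo. At an unadjusted p under 0.05 there were 1 (7.69%, against 10.4% of all) and 2 (15.4%, against 16.4%). On the centred scale 2 of 13 (15.4%) had Ad above Pp, against 19.3% of all, and 2 had Ad below Pp, against 23.4%. The whole embryo was above all 4 fragments for 3 (23.1%), against 23.5%, and below all 4 for 3, against 28.8%. With 13 member probe sets 1 of them is 7.69%, so nothing is read from these shares. The last 2 counts hold 1 Airn probe set each, and the last also Dlk1, all below the filter signal on 1 side.

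Dlk1, a paternally expressed transmembrane protein of the Notch ligand family that shares a domain with Meg3, was at 58.9 and 46.7 in Ad, 41.5 and 47.0 in Pp and 22.6 in the whole embryo. The whole embryo lay below all fragments and below the filter signal of 37.2, so no fold is given (0.82 ± 0.18, limma adjusted p = 0.0798). It passed without Pp replicate 3 (0.0453) and without Pp replicate 4 (0.0369). A Dlk1 probe set on MOE430A, below the filter, was at 444 to 469 over the fragments, against 475 in the whole embryo. The brightest Meg3 probe set on MOE430B was at 2014 and 2116 in Ad, 2314 and 1418 in Pp and 1224 in the whole embryo (0.65 ± 0.28, limma adjusted p = 0.315). It passed without Pp replicate 4 (0.0186), and the other 4 tested ranged from -0.07 to 0.19.

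Ube3a, a ubiquitin ligase gene that is imprinted in neurons, had the largest difference between Ad and Pp among the 7 genes on MOE430B, at 110 and 96.9 in Ad, 126 and 129 in Pp and 114 in the whole embryo (-0.35 ± 0.14, limma adjusted p = 0.475). Airn, the paternally expressed noncoding RNA that silences Igf2r, was at 47.6 and 47.6 in Ad, 37.5 and 50.7 in Pp and 35.1 in the whole embryo. Its 3 tested probe sets gave -0.47, -0.16 and 0.29 against the whole embryo. The lowest had its fragment mean, and the highest its whole embryo, below the filter signal of 37.2. The remaining members were near 0 between fragments and whole embryo: Plagl1 (-0.13), Gnas (52.5, 51.5, 47.7, 54.9 and 57.4; -0.14) and Impact (119, 83.5, 114, 120 and 123; -0.18). By class, the 4 paternally expressed genes had medians of -0.11 between Ad and Pp and 0.08 against the whole embryo, and the 2 maternally expressed genes -0.12 and 0.32, against -0.01 and 0.03 over all probe sets. With 1 array left out the paternal medians ran from -0.20 to 0.12 and from -0.09 to 0.09, and the maternal median between Ad and Pp from -0.32 to 0.07, so none of these 3 had a settled sign. The maternal median against the whole embryo stayed above 0 (0.23 to 0.42), opposite in sign to that on MOE430A. It rests on Meg3 (0.65) and Ube3a (0.0019).

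Of the 31 members 7 had probe sets but none bright enough to test, all on MOE430A. Besides Kcnq1 and Osbpl5 these were Peg10, a retrotransposon-derived gene needed for the placenta (103 to 129 in the fragments, 112 in the whole embryo), Mkrn3 (77.7 to 102, and 89.3), Nap1l5 (184 to 201, and 190.5), Peg12 (63.0 to 78.2, and 72.7) and Zim1 (201 to 249, and 223). With no filter none of the 7 passed in limma in either comparison, and the lowest limma adjusted p was 0.171 (Osbpl5 against the whole embryo).

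The factors that set and keep imprints showed no difference between Ad and Pp that passed. On MOE430A 0 of 16 listed factors passed in limma there (1 at an unadjusted p under 0.05, median -0.0026), and on MOE430B 0 of 8 (0 unadjusted, median 0.06). Against the whole embryo Dnmt3a, a DNA methyltransferase that lays down imprints in germ cells, was higher in the fragments, at 3309 and 3455 in Ad, 3230 and 2681 in Pp and 2013 in the whole embryo (0.67 ± 0.11, limma adjusted p = 0.0202). Dnmt3a was the only 1 of the 16 to pass in limma, where 9.78% of all probe sets tested passed. At an unadjusted p under 0.05 there were 5 of the 16, against 27.3% of all. The median of the 16 was 0.15. Trim28, the corepressor that works with Zfp57, was at 9264 to 10436 over the fragments, against 8350 in the whole embryo (limma adjusted p = 0.0680), and Zfp57 was at 679 to 722 and 665 (limma adjusted p = 0.297). Dnmt1, which copies methylation after replication, was at 2730 to 2963 and 3142 (limma adjusted p = 0.634). On MOE430B 0 of 8 factors passed in limma against the whole embryo, with 1 at an unadjusted p under 0.05.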

How the data were processed

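RNA of E5.5 mouse embryo fragments and of whole embryos was measured on 10 Affymetrix arrays, 5 of each type. The authors deposited linear intensity values per probe set, and the submitters' processing notes name MAS5. Its version and scaling target: not given in the sources used here. Array medians of 591 to 645 (MOE430A) and 56.7 to 61.0 (MOE430B) showed that arrays of a type were already on about 1 scale. MAS5 values of dim probe sets are noisy, and arrays carry no counts, so signal over background and the number of arrays limit the precision. No label states that replicates were separate embryos. The p-values reflect spread among these arrays only, which may be technical.

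Each type was fitted alone with limma 3.58.1 in R 4.3.3 (lmFit, eBayes, 2 residual degrees of freedom). The 64 control probe sets were left out, a pseudocount at the 20th percentile of the values was added before log2, probe sets with a mean log2 above the 40th percentile were kept (13575 and 13506), and each array was centred on its median. Tests were two-sided with Benjamini-Hochberg adjustment over all kept probe sets, and ± gives the SE. Folds are on the log2(value + pseudocount) scale, which understates changes of dim probe sets, and are given only where both group means were above the filter signal. Gene symbols came from the platform annotation table. All 78 member probe sets matched RefSeq (GRCm38.p6) by gene ID, which served for names, gene order and promoters only. The fit was tested on simulated data.

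The members, gene lists and tests were chosen with earlier results of these data known. Array values are given for every member probe set past the threshold and for the 5 tested genes with the largest difference each way per array type and comparison. The scaling was varied (cyclic loess, quantile normalization, no centring), as were the pseudocount (none, or the 40th percentile) and the filter (none, or the 60th percentile). An intensity trend, a replicate block and leaving out each Ad or Pp array were also tried. The whole embryo could not be left out, since it has 1 array.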

Additional observations from a re-analysis of the deposited data

How the results depend on the processing

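For 35 named differences, 436 alternative fits gave 398 with the same direction and side of the threshold, 16 that newly passed, 11 that no longer passed and 11 that changed sign. Only 6 of the 35 had passed in the main fit, all on MOE430A against the whole embryo, and the 11 losses are theirs. Most of the 398 are thus differences that passed in neither fit. Among member probe sets on MOE430A, the count passing between Ad and Pp went from 0 to 1 (Grb10) with no centring, and the count against the whole embryo from 6 to 3 with no pseudocount. Leaving out 1 array gave 0 to 4 and 2 to 16 member probe sets on MOE430A (the 16, without Pp replicate 2, cover 11 genes), and 0 to 0 and 0 to 2 on MOE430B. Over all probe sets it gave 1 to 805 and 274 to 3491 on MOE430A, and 0 to 131 and 101 to 1183 on MOE430B: fewer without an Ad array and more without a Pp array on MOE430A. Between Ad and Pp, all probe sets went from 23 to 46 on MOE430A with no centring. On MOE430B they went from 15 to 30 with the larger pseudocount, 2 with no filter, 26 with the stricter filter and 30 with an intensity trend. Against the whole embryo on MOE430B 196 passed with no filter, against 299. On MOE430A the share of calls higher in the fragments, 47.0%, was 25.9% with no centring, 30.7% under cyclic loess and 33.7% with no filter. The causes of these shifts were not tested.

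The deviations of same-numbered Ad and Pp arrays had correlations of -0.242 on MOE430A and -0.039 on MOE430B. With so few arrays per group, these values cannot show whether same-numbered arrays share an embryo or a batch. The labels do not state a pairing either, so it was left undecided. With the replicate block 24 probe sets passed between Ad and Pp on MOE430A and 29 on MOE430B, with 0 member probe sets on either. With the numbers crossed on MOE430A, an alternative chosen after seeing the data, 47 passed, 1 of them a member probe set.

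The signs of named differences that changed all belonged to differences that had not passed. Between Ad and Pp, Meg3 on MOE430A was -0.039 to 0.23 over the left-out arrays (negative without Pp replicate 1). On MOE430B in the same way Airn was -0.12 to 0.17 (negative without Pp replicate 3), Dlk1 -0.019 to 0.28 (without Ad replicate 3) and Meg3 -0.27 to 0.49 (without Pp replicate 4), and Gnas was 0.018 with no centring. Against the whole embryo, Ube3a on MOE430B was -0.0063 under quantile normalization, -0.025 under cyclic loess, -0.022 with no filter, -0.0036 with the stricter filter, and -0.042 to 0.047 over the left-out arrays (negative without Ad replicate 3 and without Pp replicate 3).

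With 1 whole-embryo array, its own spread could not be measured. Dim members are limited by signal over background.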

Other observations

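Some probe sets annotated to an imprinted gene together with a neighbour fell outside the rule, and their values cannot be given to 1 gene. The probe set annotated to Mir675 and H19 together, a growth-restraining maternally expressed locus, was at 8168 and 7149 in Ad, 9048 and 13127 in Pp and 14483 in the whole embryo. Its highest fragment was Pp replicate 2, as for Phlda2 and Elf5, and it passed neither comparison (Ad minus Pp -0.57, limma adjusted p = 0.355; fragments minus whole embryo -0.57, limma adjusted p = 0.135).

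The 3 tested probe sets annotated to Snurf and Snrpn together, which are made from 1 paternally expressed transcript unit, were higher in the fragments on MOE430A. The brightest was at 8803 and 8918 in Ad, 8895 and 8279 in Pp and 6446 in the whole embryo, and the 3 were 1.42-, 1.46- and 1.42-fold higher (limma adjusted p = 0.0184, 0.0141 and 0.0358). On MOE430B 1 of the 2 tested passed, at 109 and 90.4 in Ad, 87.5 and 55.6 in Pp and 18.8 in the whole embryo (1.67 ± 0.26, limma adjusted p = 0.0281), and the other was level (-0.15). The whole-embryo signal of the former was below the filter signal.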
